A study of Mus musculus with 15 samples.

Results

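The matrix metalloproteinase (*Mmp*) cluster of mouse chromosome 9 was examined as the set of all listed regions that overlap chr9:7270000-7702000 (mm39), a window of 432 kb that holds *Mmp13*, *Mmp12*, *Mmp3*, *Mmp1a*, *Mmp10*, *Mmp8* and *Mmp7*. The window contained 5 of the 44598 regions in the table made for knockdown (KD table) and 2 of the 38036 regions in the table made for overexpression (OE table). The *Mmp3* region was listed in both tables, so the 7 listed regions stood for 6 distinct places. The locus was selected on the counts of these same libraries, so every count, fold change and call in the window is given here as a description and does not serve as evidence for the choice of the locus.

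ATAC-seq, which marks open chromatin by the insertion of a transposase, was performed on 6DT1 cells, a metastatic mouse mammary cancer line, grown as a monolayer on plastic. The 15 libraries came from 5 lines with 3 libraries each. EV cells carried an empty vector and OE cells a vector that overexpresses *Smarcd1*, a subunit of the SWI/SNF chromatin remodelling complex, and both were cultured with blasticidin. Scr cells carried a scrambled shRNA, KD4 and KD6 cells carried an shRNA against *Smarcd1*, and all of them were cultured with puromycin. All lines were made by viral transduction, and the labels name 1 line per group. Which of the study's shRNAs is in KD4 and which in KD6 is not stated there. Per the labels, each replicate was seeded from another passage on another day. Totals per library ranged from 16176518 to 23703753 counts in the KD table and from 22668622 to 31225956 in the OE table. The knockdown and overexpression of *Smarcd1* itself were not checked here, because no gene annotation of mm39 was used. For the same reason the epithelial identity of the cells was not checked against marker genes.

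Matrix metalloproteinases are zinc-dependent, secreted or membrane-bound proteases that cut the extracellular matrix, and many of them sit side by side in this cluster. *Mmp13*, *Mmp1a* and *Mmp8* encode collagenases, which cut fibrillar collagen. *Mmp3* and *Mmp10* encode stromelysins, which cut proteoglycans, laminin and fibronectin and activate other latent metalloproteinases. *Mmp12* encodes macrophage elastase and *Mmp7* encodes matrilysin. Several of these genes are known targets of the transcription factor AP-1, and in breast tumours they are expressed by tumour cells and by stromal cells around them.

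Of the 7 genes, 3 held a region. *Mmp13* held 1 region (chr9:7282257-7282698, 442 bp), *Mmp3* held 1 (chr9:7446962-7447633, 672 bp, in the KD table and chr9:7447049-7447607, 559 bp, in the OE table) and *Mmp10* held 3 (chr9:7503198-7503629, 432 bp, chr9:7504829-7504998, 170 bp, and chr9:7509901-7510225, 325 bp). The OE-table *Mmp3* region lay wholly within the KD-table one and covered 83.2% of it. The remaining OE-table region (chr9:7612737-7612897, 161 bp) lay outside all 7 genes, 44237 bp from *Mmp8*, the nearest. In the RefSeq gene order *Mmp27* and *Mmp20* lie between *Mmp8* and *Mmp7*, and whether that region falls in either was not determined. *Mmp12*, *Mmp1a*, *Mmp8* and *Mmp7* held no region in either table. In the KD table the nearest listed region was 61602 bp from *Mmp12*, 16467 bp from *Mmp1a*, 48175 bp from *Mmp8* and 66075 bp from *Mmp7*. Regions come from peak calling, so a gene without one is not shown to be closed. All 7 listed regions passed the filter on low counts in the comparisons of their table.

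The regions lay inside the genes and not at their starts. The *Mmp3* region began 1162 bp after the start of its gene, the first *Mmp10* region 898 bp and the *Mmp13* region 9757 bp, with starts given to the nearest 100 bp. Exon spacing from the NCBIM37 annotation was laid on these starts, sliding each gene by up to 100 bp for the rounding. Each of the 3 genes has 10 exons. The *Mmp3* region fell on exons 2 to 4, the *Mmp10* regions fell on exons 2 and 3, on exon 5 and on exon 10, and the *Mmp13* region fell within exon 10. These exons were the same at every position tried. At the position with the largest exonic share, exons covered 71.0% of the *Mmp3* region, 89.8% of the 3 *Mmp10* regions together and 100% of the *Mmp13* region, against 17.7%, 21.8% and 24.7% of the genes. At the least favourable position the shares were 54.9%, 42.3% and 100%. The labels of these libraries describe RNA extraction and mRNA libraries, the processing notes name STAR, an aligner often used for spliced RNA reads, and the methods describe ATAC-seq of nuclei aligned with Bowtie2. Whether reads from RNA entered the counts was not tested, so the values below are called counts and not accessibility.

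**Figure D1:**
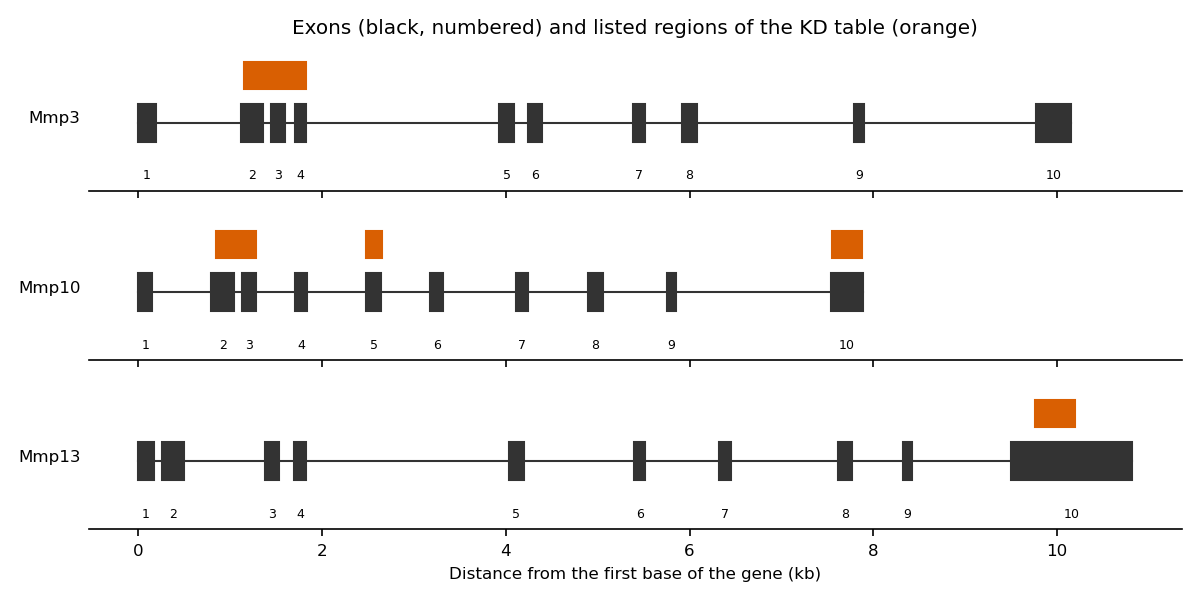
Exons (black boxes, numbered) of Mmp3, Mmp10 and Mmp13 and the listed regions of the KD table (orange), against distance from the first base of each gene in kb. The Mmp3 region sits on exons 2 to 4, the Mmp10 regions sit on exons 2 and 3, 5 and 10, and the Mmp13 region sits inside exon 10.

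*Mmp3* and *Mmp10* are close copies in exons 2 and 3 and less alike in exons 4 and 5, and their exons 10 were not compared. Exon 3, which lies under the *Mmp3* region and the first *Mmp10* region, is shown for both genes because much of it is identical between them. The sequences are from the NCBIM37 transcripts on chromosome 9, 5′ to 3′, and capitals mark the bases that differ between the copies.
Mmp3 exon 3: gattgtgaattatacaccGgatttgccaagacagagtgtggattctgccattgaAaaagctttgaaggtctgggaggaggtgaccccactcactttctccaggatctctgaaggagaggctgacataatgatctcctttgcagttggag
Mmp10 exon 3: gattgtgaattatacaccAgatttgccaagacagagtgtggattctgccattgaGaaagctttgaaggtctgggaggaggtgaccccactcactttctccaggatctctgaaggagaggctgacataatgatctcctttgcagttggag

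The copies differed at 2 of the 149 bases of exon 3, an identity of 98.7%, and shared a run of 94 identical bases. Exon 2 was 92.2% identical over 245 bp with a longest shared run of 86 bases, exon 4 was 73.8% identical and exon 5 was 80.0% identical. A read that lies wholly within a shared run matches both genes equally. In the KD table the *Mmp3* region and the first *Mmp10* region had values that were not whole numbers in 15 of 15 libraries, whereas the *Mmp10* regions on exons 5 and 10 had whole values throughout. In the OE table, where no *Mmp10* region was listed, the *Mmp3* region had whole values in 15 of 15 libraries. Whether reads were divided between the genes was not tested. Levels of *Mmp3* and of the first *Mmp10* region are uncertain relative to each other. Exon 5, the place of the second *Mmp10* region, carries the codons of the zinc-binding motif of the catalytic domain. It is shown for both stromelysins with those codons in capitals, since the largest fold changes of the window were at this exon of *Mmp10*.
Mmp10 exon 5: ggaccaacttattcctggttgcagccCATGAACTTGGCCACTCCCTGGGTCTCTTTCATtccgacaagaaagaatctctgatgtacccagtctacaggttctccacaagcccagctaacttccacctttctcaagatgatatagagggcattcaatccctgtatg
Mmp3 exon 5: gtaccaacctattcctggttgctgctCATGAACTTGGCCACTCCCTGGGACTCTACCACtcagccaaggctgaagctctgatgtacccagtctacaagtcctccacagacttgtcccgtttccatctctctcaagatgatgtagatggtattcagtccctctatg

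Most promoters of the 7 genes share a sequence feature that the choice of regions did not use. *Mmp1b*, *Mmp27* and *Mmp20* also lie between *Mmp13* and *Mmp7* in the RefSeq gene order, and their promoters were not examined. RefSeq promoter sequences (GRCm38.p6, 250 bases before to 50 after the start) were matched for 7 of 7 genes and searched for the AP-1 word TGAGTCA and its reverse complement TGACTCA. The word was present in 6 of 7 genes, all but *Mmp8*, and in 5.20% of 32851 promoter windows of the same length. *Mmp12* and *Mmp7* each had another window without it, so that 6 of 9 windows held the word. A TATA word (TATAAA or TTTATA) was in the same window as the AP-1 word in 6 of 7 genes, or 6 of 9 windows, and in 0.941% of all windows. The 3 genes with regions are shown from 40 bases before the AP-1 word towards the start of the gene, all on the plus strand of chromosome 9, with the word in capitals.
Mmp3 promoter: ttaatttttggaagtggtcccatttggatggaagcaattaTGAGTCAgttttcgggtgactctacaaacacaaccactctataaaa
Mmp10 promoter: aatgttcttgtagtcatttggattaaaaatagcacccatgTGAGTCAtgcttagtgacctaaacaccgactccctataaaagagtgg
Mmp13 promoter: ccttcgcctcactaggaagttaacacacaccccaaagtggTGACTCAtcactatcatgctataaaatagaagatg

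The first base of the word lay 46 bases before the start in *Mmp3*, 63 in *Mmp10* and 35 in *Mmp13*. In *Mmp12*, *Mmp1a* and *Mmp7* it lay 44, 73 and 63 bases before the start. These are matches of letters, and none of the promoters held a listed region.

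Levels are given as counts-per-million (CPM) of the library total after scaling with the trimmed mean of M-values (TMM). The stromelysin gene *Mmp3* carried most of the signal of the window. Its KD-table region reached a mean of 54.3 CPM over the 15 libraries, above 92.9% of all regions, whose median was 5.66 CPM. Per kilobase of region it reached 80.8 CPM, against a median of 18.2 CPM per kilobase over all regions. In single libraries it made up between 70.7% and 91.2% of the counts of the window. The other 4 KD-table regions had means between 1.39 and 4.17 CPM, or between 3.15 and 11.4 CPM per kilobase, below the medians of all regions.

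The *Mmp3* region was highest in the KD6 line. Its KD6 libraries stood at 103.0, 90.7 and 97.0 CPM (mean 96.9 ± 6.12, SD, n = 3). The EV libraries stood at 69.0, 65.0 and 44.4 CPM (59.5 ± 13.2) and the OE libraries at 52.3, 56.1 and 37.1 CPM (48.5 ± 10.0). The KD4 libraries stood at 24.8, 33.5 and 43.2 CPM (33.8 ± 9.20) and the Scr libraries at 26.9, 32.9 and 38.2 CPM (32.7 ± 5.64). All 3 KD6 libraries were above the other 12 libraries. Going down the order KD6, EV, OE, KD4 and Scr, neighbouring groups after KD6 overlapped, and EV lay wholly above KD4 and Scr.

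The same gene gave the same order in the OE table, whose regions were called separately. There the KD6 libraries stood at 64.3, 55.8 and 59.7 CPM, the EV libraries at 43.9, 37.9 and 26.5 CPM and the OE libraries at 30.9, 33.6 and 22.1 CPM. The KD4 libraries stood at 15.1, 22.0 and 26.6 CPM and the Scr libraries at 15.3, 19.5 and 23.2 CPM. Again every KD6 library was above all others, and EV lay wholly above Scr but overlapped KD4 by a narrow margin. Since both tables count the same 15 libraries over nested regions, this is not a second measurement.

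The regions of *Mmp10*, the other stromelysin gene, followed another order. At exon 5 the Scr libraries stood at 0.93, 0.26 and 0.43 CPM, from 15, 5 and 8 counts. The KD4 libraries stood at 2.48, 1.74 and 3.11 CPM and the KD6 libraries at 2.87, 1.62 and 2.91 CPM. The EV libraries stood at 1.42, 3.62 and 1.46 CPM and the OE libraries at 1.86, 2.72 and 1.58 CPM. All 3 Scr libraries were below the other 12 libraries, whose groups all overlapped each other.

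At exon 10 of *Mmp10* the Scr libraries stood at 1.18, 0.78 and 1.23 CPM, again below all others. The KD4 libraries stood at 2.82, 2.07 and 4.97 CPM, the KD6 libraries at 3.89, 2.28 and 2.64 CPM, the EV libraries at 1.86, 3.53 and 1.79 CPM and the OE libraries at 1.80, 3.48 and 1.69 CPM. At exons 2 and 3, which are nearly identical to those of *Mmp3*, the Scr libraries stood at 1.92, 1.77 and 2.94 CPM, the KD4 libraries at 3.21, 3.03 and 5.13 CPM and the KD6 libraries at 6.53, 3.80 and 6.87 CPM. The EV libraries stood there at 2.84, 7.33 and 2.97 CPM and the OE libraries at 5.46, 5.88 and 2.87 CPM. In this region Scr lay wholly below KD4 and KD6 only, and EV and OE each had a library that fell below the highest Scr library. Replicate 2 was the highest of the EV and of the OE libraries in all 3 *Mmp10* regions, and the lowest of the Scr, KD4 and KD6 libraries. KD4 replicate 3 was the highest of the KD4 libraries in all of them. Libraries with the same number thus moved together across lines here, while the main fits took them as unpaired.

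The collagenase gene *Mmp13* had low counts, and most of its groups overlapped. Its region stood at 2.01, 2.19 and 1.37 CPM in EV, 1.29, 1.43 and 0.96 CPM in OE, and 1.30, 1.25 and 0.53 CPM in Scr. The KD4 libraries stood at 1.75, 1.19 and 1.14 CPM and the KD6 libraries at 1.81, 1.07 and 1.64 CPM. EV lay wholly above Scr and every other pair of groups overlapped. The OE-table region between *Mmp8* and *Mmp7* stood at 0.48, 0.81 and 1.12 CPM in EV, 0.76, 0.59 and 1.22 CPM in OE, 1.49, 1.29 and 0.99 CPM in Scr, 1.33, 0.87 and 1.36 CPM in KD4, and 1.14, 1.24 and 0.86 CPM in KD6. Each pair of groups overlapped there.

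**Figure D2:**
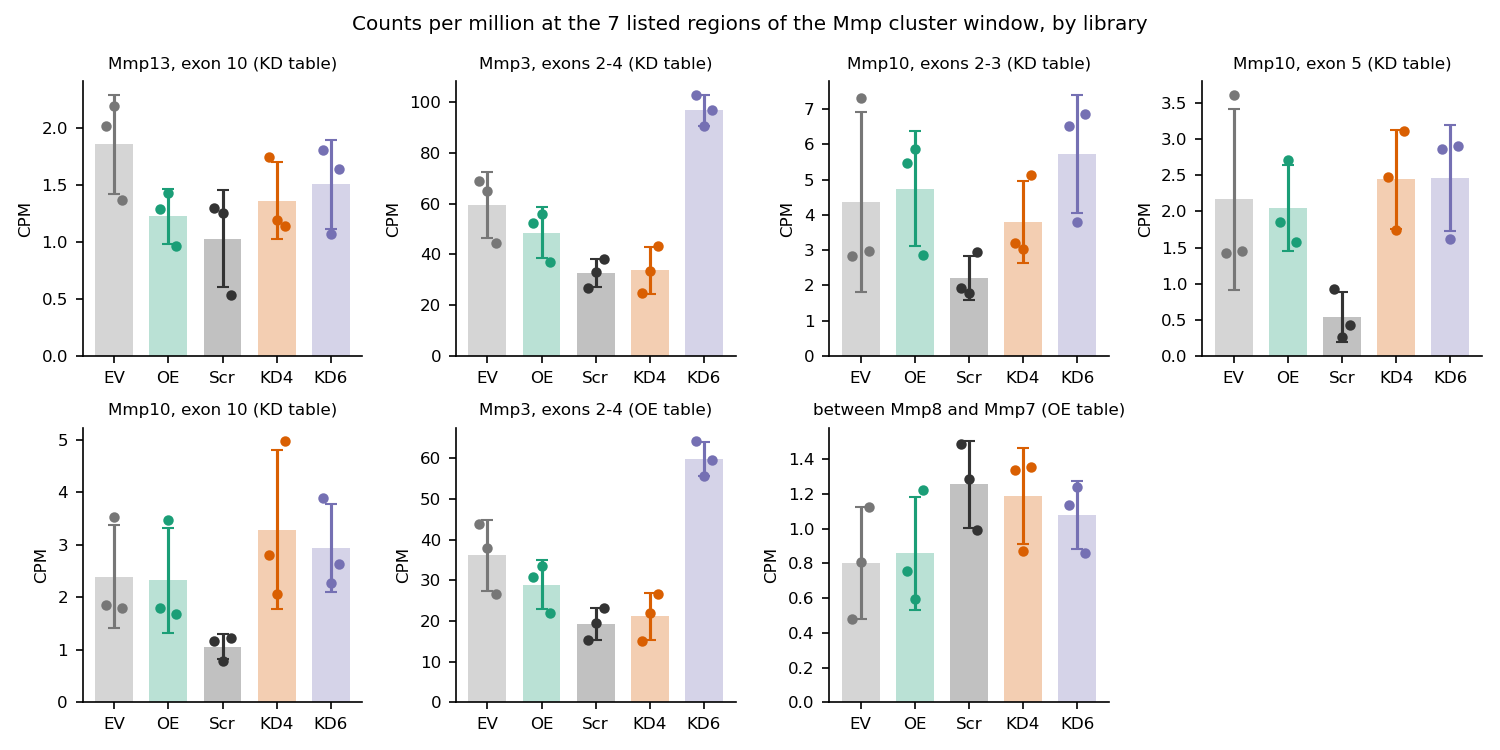
CPM by library (points, replicates 1 to 3 from left to right), with group mean (bar) and SD (error bar, n = 3), for the 5 KD-table and 2 OE-table regions of the window. KD6 stands apart at Mmp3, with means of 96.9 CPM in the KD table and 59.9 CPM in the OE table, and Scr stands below the other lines at exons 5 and 10 of Mmp10.

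Across the 15 libraries the 3 *Mmp10* regions varied together more closely than with *Mmp3*. Pearson's r of log2 CPM was 0.92 between exons 5 and 10 of *Mmp10*, 0.83 between exons 2 to 3 and exon 5, and 0.81 between exons 2 to 3 and exon 10. *Mmp3* had an r of 0.69 with the first *Mmp10* region and of 0.46 and 0.45 with the other 2. These values describe 15 libraries that share lines and depth, and they carry no test.

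The next comparison sets the KD4 and KD6 lines against the Scr line. With 1 line per group and the knockdown unchecked here, lower *Smarcd1*, shRNA and line cannot be told apart. This also holds for each knockdown line alone and for KD6 against KD4. With the mean of KD4 and KD6 set against Scr in edgeR's quasi-likelihood test, 3 of the 5 regions were called higher at a false discovery rate (FDR) of 0.05, beside 0.255% of the 44289 regions tested. Since the locus was chosen with this contrast in view, nothing is read from that count. The log2 fold change was 0.81 ± 0.157 (SE) at *Mmp3*, 2.22 ± 0.365 at exon 5 and 1.55 ± 0.312 at exon 10 of *Mmp10*, all called, and 1.07 ± 0.255 at exons 2 and 3 of *Mmp10* and 0.48 ± 0.311 at *Mmp13*, neither called. The median over the 5 regions was 1.07, against -0.01 over all regions tested. The number of calls rested on single libraries. It was 0 without Scr replicate 2 or Scr replicate 3, and 1 without Scr replicate 1, KD4 replicate 3, KD6 replicate 1 or KD6 replicate 2, with all 5 fold changes still positive in each fit.

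The pooled value hid a difference between the knockdown lines at *Mmp3*. KD4 against Scr gave a log2 fold change of 0.05 ± 0.176 there, and KD6 against Scr gave 1.57 ± 0.177. The direct comparison of KD6 with KD4 gave 1.52 ± 0.177, a difference that was called in that fit and in every fit that left out 1 library. It was the only call among the 5 regions, beside 0.151% of all regions called higher in KD6 than in KD4. When the *Mmp3* region and the first *Mmp10* region were merged into 1, an alternative added after the data were seen, this difference was 1.45 and was still called.

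At exons 5 and 10 of *Mmp10* the knockdown lines lay close together, and at exons 2 and 3 they lay further apart. KD4 against Scr gave 2.21 ± 0.400 at exon 5 and 1.63 ± 0.344 at exon 10, the 2 regions called in that comparison, beside 0.431% of all regions called higher. KD6 against Scr gave 2.23 ± 0.398 at exon 5, which was called, and 1.48 ± 0.346 at exon 10, which was not. At exons 2 and 3 KD4 gave 0.77 ± 0.289 and KD6 gave 1.37 ± 0.281, neither called, from group means of 3.79 and 5.73 CPM. The KD6 value at exons 2 and 3 was called with DESeq2 and with replicate number as a block. Exon 5 of *Mmp10* and *Mmp3* were the 2 calls for KD6, beside 0.142% of all regions called higher. KD6 against KD4 gave 0.02 ± 0.318 at exon 5, -0.15 ± 0.300 at exon 10 and 0.60 ± 0.264 at exons 2 and 3, none of which was called, and the last had an unadjusted p under 0.05. For KD4 the calls fell to 0 without Scr replicate 2, Scr replicate 3 or KD4 replicate 3, and to 1 without Scr replicate 1 or KD6 replicate 2. For KD6 the call at exon 5 was lost without any 1 of the 3 Scr or the 3 KD6 libraries, and the call at *Mmp3* was kept in all of these fits. Both comparisons use the same Scr libraries, whose low counts at exon 5 enter each fold change.

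Overexpression of *Smarcd1* was compared with its empty vector in the OE table. The log2 fold change was -0.30 ± 0.167 at *Mmp3* and 0.08 ± 0.370 at the region between *Mmp8* and *Mmp7*. Of these 2 regions 0 were called by edgeR, beside 0.0106% of 37765 regions called in either direction. Without a replicate block 0 had an unadjusted p under 0.05, as 3237 regions of the table had, and 0 were called by DESeq2. With replicate number as a block in the edgeR fit, the unadjusted p of *Mmp3* was under 0.05, without a call. In the KD table, where the same libraries could be fitted over all 5 regions, OE against EV gave -0.29 at *Mmp3*, 0.12, -0.07 and -0.02 at the *Mmp10* regions in order, and -0.58 at *Mmp13*. Of all 44011 regions tested in that fit, 0 (0%) were called and 2903 had an unadjusted p under 0.05, so the 0 calls and 0 such p among these 5 say nothing about them.

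The control lines differed from each other at the same regions. Scr against EV gave a log2 fold change of -0.85 ± 0.169 at *Mmp3*, -2.03 ± 0.443 at exon 5 and -1.17 ± 0.326 at exon 10 of *Mmp10*, and these 3 of 5 regions were called lower, beside 2.2% of 43819 regions tested. At exons 2 and 3 of *Mmp10* the value was -0.97 ± 0.322 and at *Mmp13* it was -0.85 ± 0.338, neither called. In the OE table *Mmp3* was called lower in Scr, at -0.91 ± 0.183, beside 2.93% of 37671 regions, and the region between *Mmp8* and *Mmp7* gave 0.62 ± 0.342. The KD-table calls fell to 0 without EV replicate 2 and to 1 without Scr replicate 1 or Scr replicate 3. Without EV replicate 2 the fold changes of *Mmp10* shrank to -0.38 at exons 2 and 3, -1.44 at exon 5 and -0.78 at exon 10, and without Scr replicate 1 that of exon 5 was -2.63. Without TMM scaling the log2 fold changes over all regions shifted upward by about 0.1, from a median of 0.02 to 0.12 in the KD table and from 0.02 to 0.13 in the OE table. The calls then went from 958 higher and 963 lower to 1075 higher and 436 lower in the KD table, and from 908 and 1105 to 1560 and 462 in the OE table. All 5 KD-table regions stayed lower in Scr, and the call at exon 10 of *Mmp10* was lost. The OE-table call was lost without EV replicate 1 or Scr replicate 1. Vector, selection drug and line cannot be told apart in this comparison, and it shares the Scr libraries with the knockdown comparisons. At exons 5 and 10 of *Mmp10* the group means of KD4 and KD6 (2.44 and 2.47 CPM at exon 5, 3.29 and 2.94 CPM at exon 10) stood near those of EV and OE (2.17 and 2.05 CPM, 2.39 and 2.32 CPM), with Scr apart at 0.54 and 1.06 CPM. Fewer cells with signal at a region and less signal per cell cannot be told apart in these bulk libraries.

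**Figure D3:**
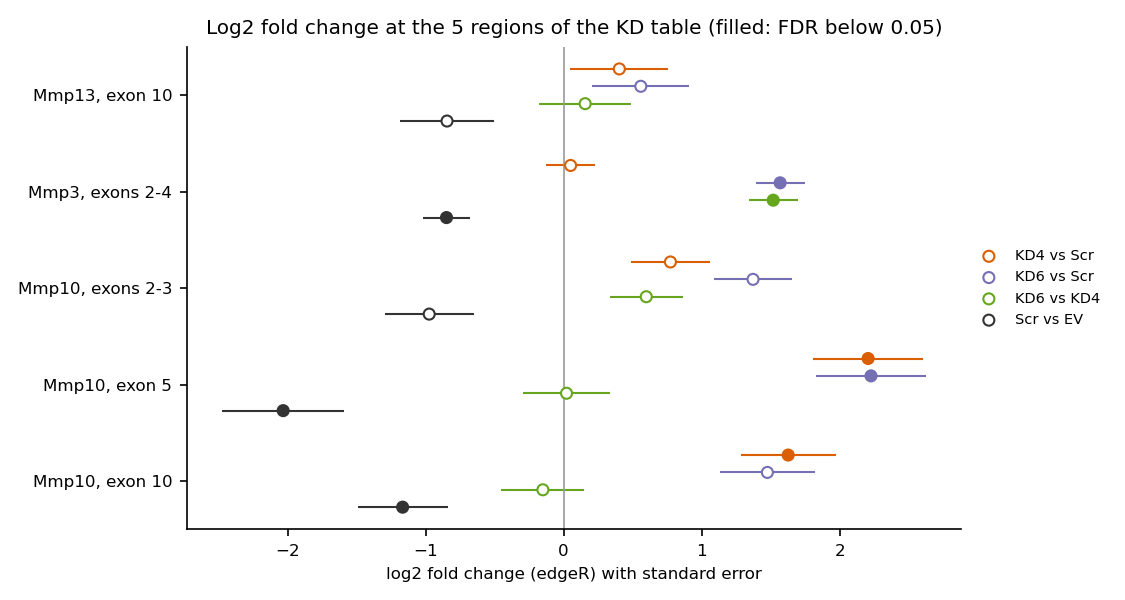
Log2 fold change (horizontal axis, edgeR) with its standard error for the 5 KD-table regions in 4 comparisons, with filled points for an FDR below 0.05. Mmp3 lies at 0.05 in KD4 against Scr and at 1.57 in KD6 against Scr, while exon 5 of Mmp10 lies at 2.21 and 2.23.

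The flanks of the window gave the setting of these values. In equal stretches of 432 kb the KD table listed 9 regions upstream and 33 downstream. None of these was called in KD against Scr, KD4 against Scr, KD6 against Scr or KD6 against KD4 by edgeR. Of all 44289 regions tested, 113, 191, 63 and 67 were called higher in these comparisons and 7, 64, 3 and 32 lower. Calls were so rare that their absence from the flanks says nothing about the flanks. At an unadjusted p under 0.05 there were 5 flank regions downstream in KD against Scr, 4 downstream in KD4, 2 upstream and 3 downstream in KD6, and 0 in KD6 against KD4. Over all regions tested, 3653, 4313, 2600 and 2820 had such a p in the same comparisons. Calls of DESeq2 were not counted in the flanks. The median log2 fold changes of the flank regions for KD against Scr were -0.17 upstream and -0.08 downstream. For Scr against EV 1 upstream region was called higher and 1 downstream region was called lower, beside 958 higher and 963 lower of all 43819 regions tested. Summed CPM of the upstream flank had group means between 55.8 and 62.6, highest in Scr, and that of the downstream flank between 392.6 and 461.2, highest in EV. The summed CPM of the window had means of 109.6 in KD6, 70.3 in EV, 58.8 in OE, 44.7 in KD4 and 37.5 in Scr. EV exceeded Scr by a ratio of means of 1.87 in the window, 1.11 in the downstream flank and 1.09 in the rest of chromosome 9. In the OE table these ratios were 1.79, 1.13 and 1.23. Libraries of EV and Scr overlapped in the rest of chromosome 9 in both tables. Without *Mmp3* the window sum was 12.6 CPM in KD6, 10.9 in KD4, 10.8 in EV, 10.3 in OE and 4.84 in Scr, and only Scr lay wholly apart from the other lines.

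**Figure D4:**
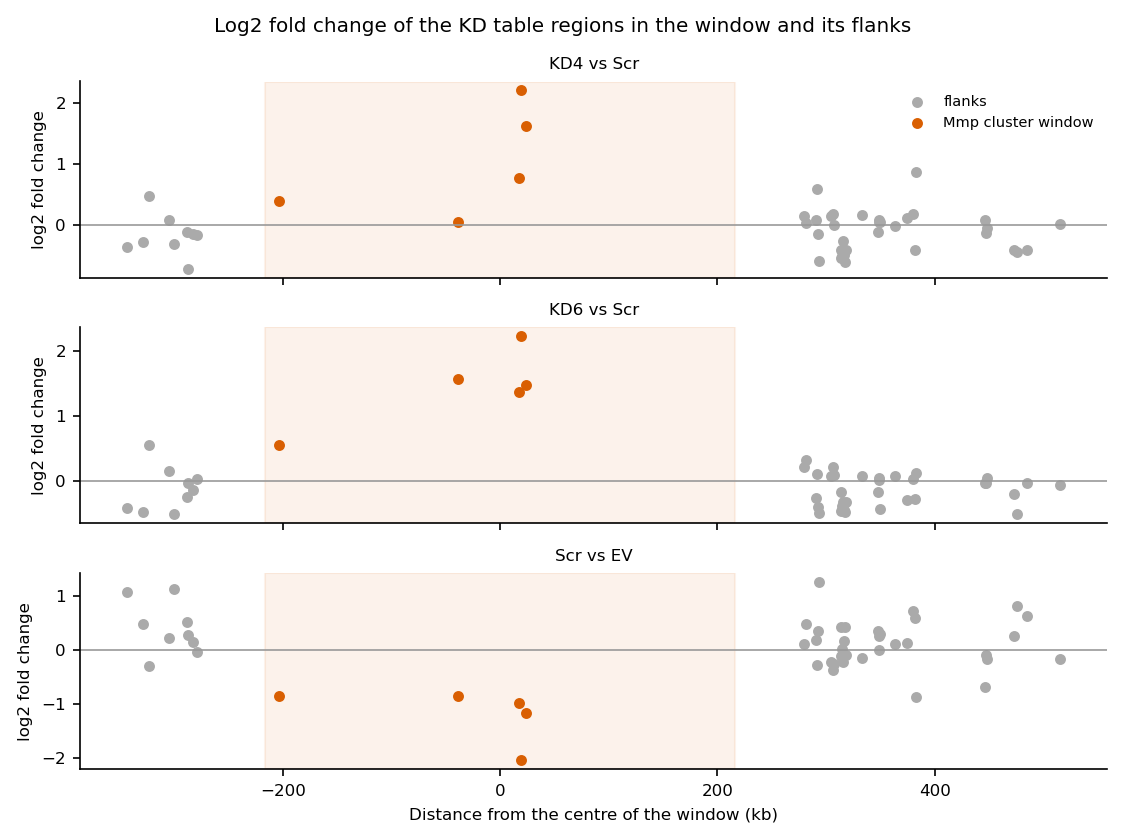
Log2 fold change of each KD-table region against its distance in kb from the centre of the window, for KD4 against Scr, KD6 against Scr and Scr against EV (orange, the 5 regions of the window; grey, the 9 upstream and 33 downstream regions of the flanks). The window regions are all at or above 0.05 in the knockdown comparisons and between -2.03 and -0.85 in Scr against EV, while flank regions lie on both sides of 0.

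Stretches without listed regions lay at both edges of the window. Gaps between the 2423 KD-table regions elsewhere on chromosome 9 were not measured, so these stretches are not shown to be unusual. The first region inside it was 12257 bp from its edge and stood at *Mmp13*, and the nearest region outside was 62971 bp upstream (chr9:7206741-7207029), with group means between 25.2 and 29.2 CPM. The last KD-table region inside was 191775 bp from the other edge, and the nearest region outside was 63675 bp downstream (chr9:7765675-7766165), with group means between 0.77 and 0.95 CPM. In the RefSeq gene order *Dcun1d5* precedes *Mmp13* and *Tmem123*, *Birc2*, *Birc3* and *Yap1* follow *Mmp7*.

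The regions elsewhere in the genome whose levels most resembled the window sum were ranked by Pearson's r of log2 CPM over the 15 libraries, among 41221 KD-table regions with a mean of at least 1 CPM. The first 5 were chr5:52924957-52925549 (r = 0.92), chr6:86251908-86252221 (0.89), chr3:14965149-14965718 (0.89), chr16:93406723-93407157 (0.88) and chr17:13551106-13551346 (0.87). The window sum, most of it *Mmp3*, was itself highest in KD6 and lowest in Scr. Through this ranking each of the 5 had its highest group mean in KD6 and its lowest in Scr. The sizes differed, from 34.8 CPM in Scr and 47.3 CPM in KD6 in the first of them to 0.70 CPM in Scr and 2.56 CPM in KD6 in the last. In the OE table, among 34389 regions, the first 5 were chr2:75468815-75468995 (r = 0.93), chr2:75469554-75470164 (0.89), chr1:51509225-51509936 (0.89), chr11:100795769-100796107 (0.88) and chrX:158905673-158906007 (0.88). Through the same ranking each of these had its highest group mean in KD6 and its lowest in KD4 or Scr.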

How the data were processed

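The deposited tables hold expected counts of reads per region, which the authors estimated and did not normalize. Per the methods, reads were aligned to mm39 with Bowtie2 and peaks were called with MACS in Partek Flow, whereas the submitters' processing notes name STAR 2.7.8a. The merging of peaks and the assignment of reads are not given in the sources used. Whole numbers made up 95.1% of the values of the KD table and 95.0% of those of the OE table. Values were rounded to whole numbers, since the planned tests assumed counts. Another 15 columns in each table match no sample and were not used.

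Regions were tested over each whole table with edgeR 4.0.16 (R 4.3.3), using TMM scaling, filterByExpr, a quasi-likelihood fit and Benjamini-Hochberg adjustment at an FDR of 0.05. Scr, KD4 and KD6 were fitted together, and OE with EV and Scr with EV separately. The edgeR fit of KD against Scr was tested on simulated counts with known fold changes, and the other comparisons and DESeq2 were not. The simulated libraries were drawn independently with no replicate effect, so that test does not cover shifts shared by libraries of the same number. CPM used TMM factors over all 15 libraries. DESeq2 1.42.0, other filters and scaling, a replicate block, the other table and fits without each library were alternatives. No 2 replicates agreed within counting error (smallest chi-square per degree of freedom 3.53). Regions named with values were, for each comparison, up to 3 called regions with the smallest p, the highest region of each gene, and the 5 most like the window sum in each table. The remaining regions of the window are also given. The members and lists were chosen with earlier results of these data known. Gene intervals are rounded mm39 values, exons come from gencode vM1 (NCBIM37, spacing only) and promoters from RefSeq (GRCm38.p6). The planned lists of other metalloproteinase genes, inhibitors, regulators and cell type markers were not applied, because no mm39 gene positions were used.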

Additional observations from a re-analysis of the deposited data

Results flagged for a closer look

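The knockdown lines differed at the *Mmp3* region. Their log2 fold changes against Scr, 0.05 ± 0.176 in KD4 and 1.57 ± 0.177 in KD6, differed by 1.52 ± 0.177 in edgeR's test of KD6 against KD4. All 3 KD6 libraries lay above all 3 KD4 libraries in both tables. The locus was proposed with these libraries in view, so the difference is a description.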

How the results depend on the processing

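No fold change of a region reversed with a call under any alternative. The number of window regions called changed with several settings. With the regions of the other table, of which 2 lie in the window, it was 1 for KD against Scr, 0 for KD4 and 1 for KD6. With at least 50 counts in 3 libraries it was 1 for KD4 against Scr, where 4 of 5 regions were tested, and 1 for Scr against EV in the KD table, where 2 were tested. With DESeq2 it was 4 for KD against Scr, by gain of exons 2 and 3 of *Mmp10*. For KD6 against Scr it was also 4, by gain of exons 2 and 3 and of exon 10. The cause was not tested. For KD against Scr it was 2 without TMM scaling and 2 with at least 50 counts in 3 libraries, both by loss of exon 10 of *Mmp10*. For Scr against EV in the KD table it was 2 without TMM scaling and 2 with 5 groups in 1 fit, by loss of the same region. Over the whole table KD against Scr gave 113 regions higher, 255 with DESeq2, 222 with 5 groups in 1 fit and 28 in the other table. Leaving out 1 library gave 0 to 3 calls for KD against Scr, 0 to 2 for KD4, 1 to 3 for KD6, 1 to 1 for KD6 against KD4, 0 to 0 for OE against EV, 0 to 4 for Scr against EV in the KD table and 0 to 1 in the OE table. The log2 difference of the window sums between group means kept its sign throughout, at 1.04 for KD against Scr, -0.31 for OE against EV, and -0.91 and -0.84 for Scr against EV. Replicate numbers were not taken to pair the libraries, since no comparison had an r above 0.1 for all 3 same-numbered pairs. That cut was not planned, and it does not exclude a pairing. It was taken over all regions, and inside the window the numbers did order alike. At all 3 *Mmp10* regions replicate 2 was lowest in Scr, KD4 and KD6 and highest in EV and OE. At *Mmp3* replicate 3 was lowest in EV and OE and highest in Scr and KD4. With replicate number as a block, the SE at exons 2 and 3 of *Mmp10* in KD against Scr fell from 0.255 to 0.194. Deviations of libraries with the same number had r between -0.22 and 0.32 over all comparisons, and those with different numbers between -0.44 and 0.37. In the OE table the same-numbered r were -0.04, 0.32 and 0.31 for EV and OE, and 0.05, 0.16 and 0.25 for EV and Scr. There replicates 2 and 3 of EV correlated best with their own number and replicate 1 did not. Seen from the Scr side, all 3 libraries of that table correlated best with the EV library of their own number. With the replicate block the calls were 4 for KD against Scr, 2 for KD4, 3 for KD6 and 1 for KD6 against KD4. The call gained for KD against Scr and for KD6 was at exons 2 and 3 of *Mmp10*. With the same block there were 0 calls for OE against EV, and 2 and 1 for Scr against EV in the KD and OE tables. Under the replicate block the unadjusted p of *Mmp3* in OE against EV was 0.011 by edgeR, against 0.089 without it, and the region was not called. The block moved the Scr against EV calls in the OE table from 908 higher and 1105 lower to 2124 and 2327. Of the fits of single regions under an alternative, 378 stayed on the same side of the threshold, 46 lost the call and 9 gained it. Counts of 5 to 15 at exon 5 of *Mmp10* in Scr limit the precision of its fold changes. Positions of exons rest on rounded gene starts.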
